A study of Homo sapiens with 4 samples.

Results

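The genes that make and use microRNAs were examined in the SeAx line, a cell line from Sézary syndrome, the leukemic form of cutaneous T-cell lymphoma (CTCL). The 10 genes were DROSHA, DGCR8, XPO5, DICER1, TARBP2, AGO1, AGO2, AGO3, AGO4 and TNRC6A, chosen by name for their place in the pathway. Every probe set that the platform annotation assigns to 1 of these symbols was taken, which gave 32 of the 49293 probe sets tested. No probe set assigned to several symbols named a member, and all 10 genes had at least 1 probe set of their own.

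Expression was measured on 4 Affymetrix PrimeView arrays, of which 2 carried RNA of control SeAx cells and 2 carried RNA of SeAx cells given miR-124. By the methods, miR-124 came from a lentiviral vector and transduced cells were selected in puromycin, and the controls are described as non-transduced, so that the vector, the selection and the microRNA cannot be told apart. The labels give each condition the numbers 1 and 2 and name neither separate cultures nor a time after transduction. The spread between 2 arrays of 1 condition may thus be technical only. Every p given here rests on that spread, which limma draws toward the spread of all probe sets. Values are given as log2 signal per probe set, as the authors' RMA summary left them, so a difference of 1 is a doubling. The level of miR-124 itself was not analysed here.

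The medians of the 4 arrays lay at 7.27 to 7.31, and the array's 23 background probe sets averaged 5.18 to 5.23. Of the T-cell markers, CD3D, CD3G, CD2 and TRBC1 were bright on every array, at 10.58 to 12.07. CD3E, CD5 and CD4 were close to the background probe sets, at 5.33 to 6.24. Markers of other cells were mostly dim, with EPCAM, KRT14, LYZ and DCN at 3.82 to 5.12 and CD14, MS4A1, KRT5, CD8B and NCAM1 at 4.88 to 6.23, while CD8A and CD79A were at 7.34 to 7.80. CSF1R, COL1A1 and COL3A1 were bright, at 8.67 to 10.60, and their part in the members' values was not tested.

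MicroRNA genes are transcribed as long primary transcripts with a hairpin. The Microprocessor, in which DGCR8 binds the transcript and the RNase III enzyme DROSHA cuts it, frees the hairpin in the nucleus, and XPO5 carries it to the cytoplasm with RAN bound to GTP. There DICER1, with its partner TARBP2, cuts off the loop, and 1 strand is loaded into an Argonaute protein. The loaded Argonaute pairs with target mRNAs and calls in a GW182 protein such as TNRC6A, which brings the deadenylases that shorten the poly(A) tail. Ectopic miR-124 has to pass through the same proteins as the cell's own microRNAs.

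DGCR8 and DICER1 themselves hold microRNA genes, according to the RefSeq annotation of GRCh38.p14. The mature sequences from DGCR8 are shown because its mRNA carries the hairpins that the Microprocessor is known to cut, a feedback that lowers DGCR8. They lie on the plus strand at chr22:20085797-20085818, chr22:20086072-20086093 and chr22:20086112-20086129, and those from DICER1 lie on the minus strand at chr14:95137923-95137944 and chr14:95137961-95137982. Capitals mark the seed, bases 2 to 8, with which a microRNA finds its targets, and no seed was shared among the 5.
hsa-miR-3618: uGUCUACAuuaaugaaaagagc
hsa-miR-1306-5p: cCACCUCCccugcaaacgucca
hsa-miR-1306-3p: aCGUUGGCucugguggug
hsa-miR-3173-3p: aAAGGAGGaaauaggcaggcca
hsa-miR-3173-5p: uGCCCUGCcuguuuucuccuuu

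None of the 32 probe sets passed the study's threshold, an unadjusted p under 0.05 in limma and a fold change above 1.5, which 0.189% of all probe sets passed. The fit run here called 93 probe sets and, at 1 probe set per gene, 28 genes. That is far fewer than the differentially expressed genes the paper reports at this threshold, and why was not tested. The differences between the conditions ran from a log2 fold change of -0.30 on an AGO4 probe set to 0.19 on an XPO5 probe set. The fold threshold corresponds to a log2 fold change of 0.58. AGO3 and AGO4 were lower in miR-124 cells on all 8 of their probe sets, and DGCR8 and XPO5 were higher on all 4 of theirs. The remaining 6 genes differed by at most 0.18 in either direction. A single probe set, of AGO4, had an unadjusted p under 0.05 in limma, or 3.12% of the members' probe sets against 4.75% of all probe sets. The lowest Benjamini-Hochberg adjusted p of a member in limma was 0.88, and no probe set of the whole array reached 0.05, where 2341 had an unadjusted p under 0.05.

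With each gene represented by its brightest probe set, none of the 10 genes passed the threshold, against 0.153% of 18243 genes, and none had an unadjusted p under 0.05 in limma, against 4.45%. With the mean of a gene's probe sets in place of the brightest, AGO4 had an unadjusted p of 0.039 in limma, at a log2 fold change of -0.20. Without control replicate 2 the log2 fold change of its brightest probe set was -0.40. Of the 32 probe sets, 28 had a 95% interval of the difference that lay wholly within 1.5-fold in both directions, or 87.5% against 78.9% of all probe sets. The 4 exceptions were 1 probe set of DROSHA, 2 of AGO3 and 1 of AGO4, with lower bounds of -0.59 to -0.64. Over the 32 probe sets, 23 were lower and 9 higher, and the median difference was -0.05 in log2 units, against 0.00 over all probe sets, but this split rested on single arrays. Without control replicate 1 it was 18 to 14, and without miR-124 replicate 2 it was 16 to 16. Probe sets of 1 gene read the same gene in the same RNA and are not replicates of each other.

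**Figure D1:**
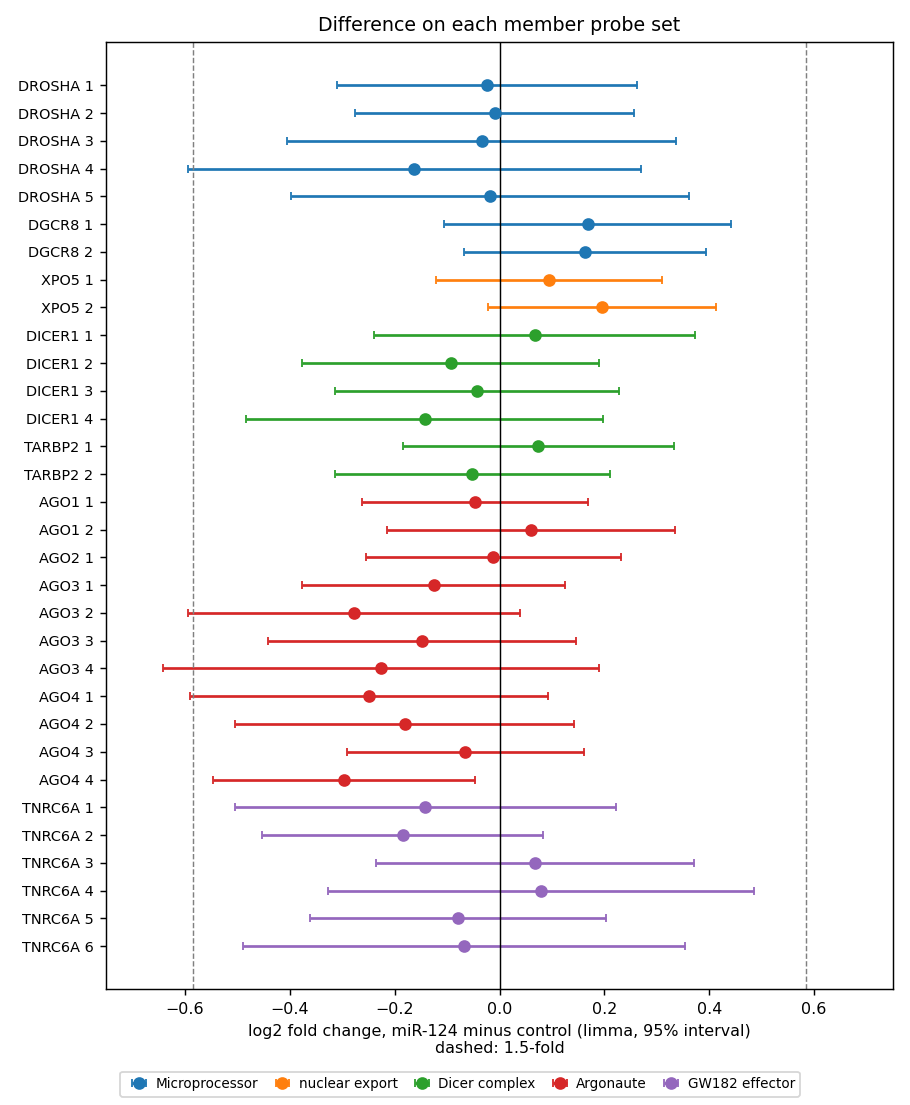
The log2 fold change of each of the 32 probe sets, miR-124 minus control, with its 95% interval from limma. Probe sets are numbered from the brightest of each gene, colors give the role, and the dashed lines mark 1.5-fold. All points lie between -0.30 and 0.19, and the interval of the dimmest AGO4 probe set is the only one that does not hold 0.

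DGCR8, the RNA-binding subunit of the Microprocessor, was slightly higher in both miR-124 arrays on both probe sets. On the brighter one (11724330_s_at) it read 9.90 and 9.95 in control cells and 10.00 and 10.19 with miR-124. On the other (11724329_a_at) it read 8.93 and 9.00 in control cells and 9.10 and 9.16 with miR-124. The conditions did not overlap on either probe set, although the gap between the nearest arrays was small. The log2 fold changes were 0.17 (standard error 0.10) and 0.16 (standard error 0.09), or 1.12-fold on each, with an adjusted p of 0.88 in limma. Both 95% intervals held 0, from -0.11 to 0.44 and from -0.07 to 0.39. DROSHA, the nuclease of the same complex, did not share this direction.

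DROSHA had 5 probe sets, and none separated the conditions. The brightest (11727107_a_at) read 10.68 and 10.64 in control cells and 10.74 and 10.53 with miR-124. The miR-124 arrays thus lay on either side of the controls, and the log2 fold change was -0.02 (standard error 0.11). On the 5 probe sets it ran from -0.16 to -0.01. The dimmest probe set, with means of 5.11 in control and 5.09 in miR-124 cells, lies at the level of the background probe sets, so DROSHA cannot be read from it. The widest difference was on 11749636_a_at, with 9.87 and 9.54 in control cells and 9.68 and 9.40 with miR-124. There the spread within each condition was wider than the difference between them, which was -0.16 (standard error 0.16, 95% interval from -0.59 to 0.27).

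XPO5, the exportin of microRNA hairpins, varied little within each condition, by at most 0.02 between the arrays. On its brighter probe set (11729165_a_at) it read 9.87 and 9.88 in control cells and 9.97 on both arrays with miR-124. On the other (11729164_a_at) it read 7.67 and 7.69 in control cells and 7.87 and 7.89 with miR-124. Both miR-124 arrays lay above both controls on both probe sets. The log2 fold changes were 0.09 (standard error 0.08) and 0.19 (standard error 0.08), or 1.07-fold and 1.14-fold, with an adjusted p of 0.88 in limma on each. The second interval ran from -0.02 to 0.41. The 2 probe sets of DGCR8 and the 2 of XPO5 were the only members with both miR-124 arrays above both controls, 4 of 32 or 12.5%, against 18.8% of all probe sets, a smaller share than on the whole array.

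DICER1, the cytoplasmic RNase III enzyme, had 4 probe sets that did not share a direction. The brightest (11755211_a_at) read 10.68 and 10.47 in control cells and 10.58 and 10.71 with miR-124, a difference of 0.07 (standard error 0.12). The other 3 had log2 fold changes of -0.04 to -0.14, the last on 11719525_s_at, with 9.30 and 9.03 in control cells and 9.08 and 8.96 with miR-124. On each of the 4 the arrays of the conditions overlapped. TARBP2, the double-stranded RNA-binding partner of DICER1, read 10.02 and 10.17 in control cells and 10.14 and 10.20 with miR-124 on its brighter probe set (11721160_a_at). The conditions overlapped there too, with a log2 fold change of 0.07, and the dimmer probe set had -0.05. All 6 intervals of the DICER1 and TARBP2 probe sets lay within 1.5-fold.

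The Argonaute proteins hold the guide strand. In mammals AGO2 is the member known for cutting fully paired targets, and all 4 act in silencing through GW182 proteins. The 1 probe set of AGO2 (11754098_a_at) read 9.11 and 9.10 in control cells and 9.03 and 9.16 with miR-124. The miR-124 arrays lay on either side of the controls, with a log2 fold change of -0.01 (95% interval from -0.25 to 0.23). AGO1 read 9.39 and 9.40 in control cells and 9.35 on both arrays with miR-124 on its brighter probe set (11720866_a_at). That probe set was lower by 0.05, with no overlap, while the dimmer one was higher by 0.06, with overlap.

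AGO4 was lower in miR-124 cells on each of its 4 probe sets, by 0.07 to 0.30. On the brightest (11759312_at) it read 7.62 and 7.33 in control cells and 7.19 and 7.26 with miR-124. On the dimmest (11759313_at) it read 6.17 and 6.03 in control cells and 5.82 and 5.79 with miR-124, close to the background probe sets. Both miR-124 arrays lay below both controls on 3 of the 4 probe sets, and on the fourth (11758237_s_at) miR-124 1, at 6.85, lay just above control 1, at 6.84. On 11739597_at the conditions were closest, with 6.68 and 6.73 in control cells and 6.61 and 6.67 with miR-124. The dimmest probe set was lower by a log2 fold change of -0.30 (standard error 0.09), or 1.23-fold, with an adjusted p of 0.88 in limma (0.029 unadjusted). It was the only member probe set with an unadjusted p under 0.05, and with any 1 of the 4 arrays left out it no longer was, at log2 fold changes of -0.23 to -0.37 and unadjusted p of 0.059 to 0.17 in limma. On the brightest the log2 fold change was -0.25 (standard error 0.13, adjusted p = 0.88 in limma).

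AGO3 was likewise lower on each of its 4 probe sets, by 0.13 to 0.28. The brightest (11739978_s_at) read 11.31 and 11.41 in control cells and 11.18 and 11.29 with miR-124. The next (11740857_x_at) read 10.02 and 10.04 in control cells and 9.88 and 9.62 with miR-124. These 2 probe sets separated the conditions, and the other 2 did not, since miR-124 2 lay among the controls. On 11756925_a_at the values were 9.21 and 9.06 in control cells and 8.90 and 9.08 with miR-124, and on the dimmest, 11760530_at, they were 5.96 and 5.69 against 5.45 and 5.75, close to the background probe sets. The log2 fold changes of the first 2 were -0.13 (standard error 0.09) and -0.28 (standard error 0.12), each with an adjusted p of 0.88 in limma. The suffixes _s and _x mark probe sets whose probes can match further transcripts, so that signal from a related Argonaute mRNA cannot be told apart there. With 1 array left out the second ran from -0.41 without miR-124 replicate 1 (unadjusted p in limma 0.020) to -0.15 without miR-124 replicate 2 (0.23), and its unadjusted p was 0.20 and 0.22 without control replicates 1 and 2. With the array number as a block it was 0.043 in limma, against 0.073 without the block.

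Over the 8 probe sets of AGO3 and AGO4 the median log2 fold change was -0.20. With each array left out in turn the medians ran from -0.24 to -0.14. Every value was below 0 in each of these fits, but AGO3 and AGO4 are grouped here by that shared direction. The shared sign and the median are thus no separate evidence of a decrease. On 5 of the 8 both miR-124 arrays lay below both controls, so leaving out 1 array could not reverse them. Probe sets of 1 gene are also not replicates of each other. On the 3 probe sets of AGO1 and AGO2 the median was -0.01. Over all members, both miR-124 arrays lay below both controls on 7 of 32 probe sets, or 21.9%, against 15.8% of all probe sets. Of these 7, 5 belonged to AGO3 and AGO4, 1 to AGO1 and 1 to TNRC6A. The difference between AGO3 or AGO4 and the other Argonautes was not tested. On these bulk arrays fewer cells with a transcript and less of it per cell cannot be told apart.

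**Figure D2:**
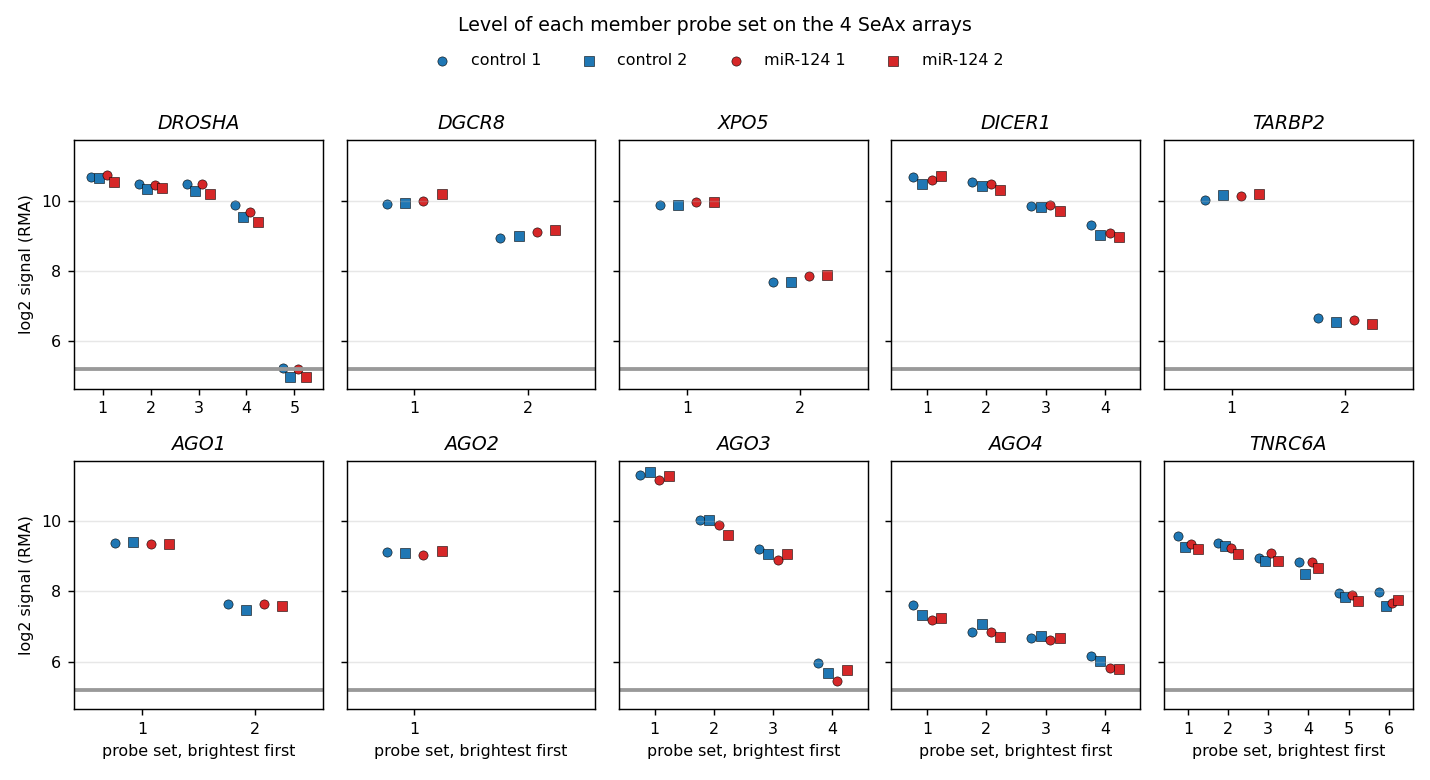
The log2 signal of each probe set of the 10 genes on the 4 arrays, brightest probe set first. Blue marks control, red marks miR-124, circles mark the arrays numbered 1 and squares those numbered 2, and the grey band gives the background probe sets at 5.18 to 5.23. The red points of AGO3 and AGO4 lie mostly below the blue ones.

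AGO4, AGO1 and AGO3 follow each other on the chromosome in the RefSeq annotation with no other protein-coding gene between them. The 150 bases before each start site are shown because 2 of these 3 neighbors were lower on every probe set and the one between them was not. They are taken from the RefSeq promoter windows of GRCh38.p14, on the plus strand, at chr1:35807866-35808015 for AGO4, chr1:35883059-35883208 for AGO1 and chr1:35930955-35931104 for AGO3. Capitals mark matches on either strand to the GC box GGGCGG and to the ETS core CCGGAAG.
AGO4: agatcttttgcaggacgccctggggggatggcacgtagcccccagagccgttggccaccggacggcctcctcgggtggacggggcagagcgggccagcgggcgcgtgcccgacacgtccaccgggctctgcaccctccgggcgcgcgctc
AGO1: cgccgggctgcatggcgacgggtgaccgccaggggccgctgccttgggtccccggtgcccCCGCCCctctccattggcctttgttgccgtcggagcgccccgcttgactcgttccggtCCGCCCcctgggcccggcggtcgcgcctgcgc
AGO3: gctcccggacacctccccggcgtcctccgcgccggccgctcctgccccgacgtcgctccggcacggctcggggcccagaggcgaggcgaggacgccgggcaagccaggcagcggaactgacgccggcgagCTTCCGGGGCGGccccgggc

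The windows of all 3 were rich in G and C, at 74.7% for AGO4, 77.3% for AGO1 and 80.7% for AGO3, against a median of 60.0% over 35116 promoter windows. AGO1 had 2 matches to the GC box. AGO3 had 1 match to the GC box and 1 to the ETS core, which overlap by a base, and AGO4 had no match to either. Of all windows of this length, 36.8% held the GC box and 6.85% held the ETS core. The E-box CACGTG and the TATA box TATAAA, searched on both strands as well, had no match in the 3 windows and matched 4.57% and 6.71% of all windows. The CCAAT box CCAAT, not in capitals here, had 1 match in AGO1 and none in the other two, and 23.5% of all windows held it. A match is a string of letters only, and the arrays did not measure binding.

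TNRC6A, the GW182 protein that Argonautes recruit, had 6 probe sets, 4 lower and 2 higher in miR-124 cells. The brightest (11748942_s_at) read 9.58 and 9.27 in control cells and 9.34 and 9.22 with miR-124, with overlap and a log2 fold change of -0.14 (standard error 0.14). The next (11717817_a_at) read 9.37 and 9.30 in control cells and 9.24 and 9.07 with miR-124. It was the only one of the 6 that separated the conditions, at -0.18 (standard error 0.10, adjusted p = 0.88 in limma). The other 4 lay between -0.08 and 0.08, and all 6 intervals lay within 1.5-fold.

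The array number separated more of the members' probe sets than the condition did, as it also did over all probe sets. It did not separate more of the 10 genes on their brightest probe sets. Both arrays numbered 2 lay below both arrays numbered 1 on 14 of the 32 probe sets, or 43.8%, against 21.9% of all probe sets. These were all 5 probe sets of DROSHA, 4 of 6 of TNRC6A, 3 of 4 of DICER1, and 1 each of TARBP2 and AGO1. Both arrays numbered 2 lay above both numbered 1 on 1 of the 32, against 11015 of all 49293. Over all 49293 the condition separated fewer, with both miR-124 arrays below both controls on 7800 and above on 9290. Averaged over the conditions, DROSHA was lower in the arrays numbered 2 by 0.12 to 0.30, and TNRC6A by 0.12 to 0.26. No probe set of DGCR8, XPO5, AGO3 and AGO4 had both arrays numbered 2 below both numbered 1. With 1 probe set per gene, the brightest, this held for 2 of 10 genes, or 20% against 22.1% of all genes. The reverse held for 1 gene, against 4185 of all 18243. Both miR-124 arrays lay above both controls for 2 of the 10, or 20% against 18.7%, and below for 3, or 30% against 15.6%. What the number stands for is not given in the sources used here. Each condition had 1 array of each number, so an equal shift by number cancels in the log2 fold changes. A shift that differs between the conditions was not tested.

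**Figure D3:**
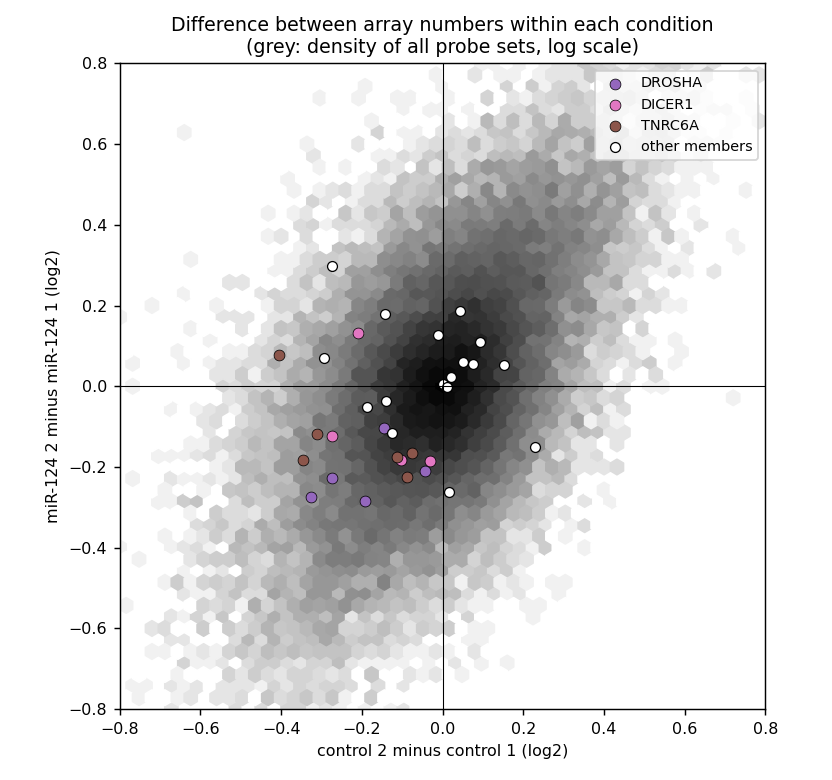
For each probe set, control 2 minus control 1 against miR-124 2 minus miR-124 1, in log2 units, with the density of all probe sets within 0.8 of 0 in grey on a log scale. All 5 DROSHA points and 5 of the 6 TNRC6A points lie below 0 on both axes.

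Within each number the difference between the conditions was taken as well. On all 4 probe sets of DGCR8 and XPO5 both miR-124 arrays lay above both controls. They were thus bound to be higher within number 1 and within number 2, and only the sizes are new here. DGCR8 was higher by 0.10 and 0.24 on its brighter probe set and by 0.17 and 0.15 on the other, number 1 first. XPO5 was higher by 0.09 and 0.10 on its brighter probe set and by 0.19 within each number on the other. Of the 8 probe sets of AGO3 and AGO4, 5 were lower within both numbers, and none was higher within both. These 5 were the ones with both miR-124 arrays below both controls, so their direction was fixed as well. On the dimmest AGO4 probe set the differences were -0.35 and -0.24, whereas the dimmest AGO3 probe set had -0.51 within number 1 and 0.06 within number 2. Over all members, 18 of 32 probe sets kept a direction within both numbers, or 56.2%, against 61.0% of all probe sets.

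**Figure D4:**
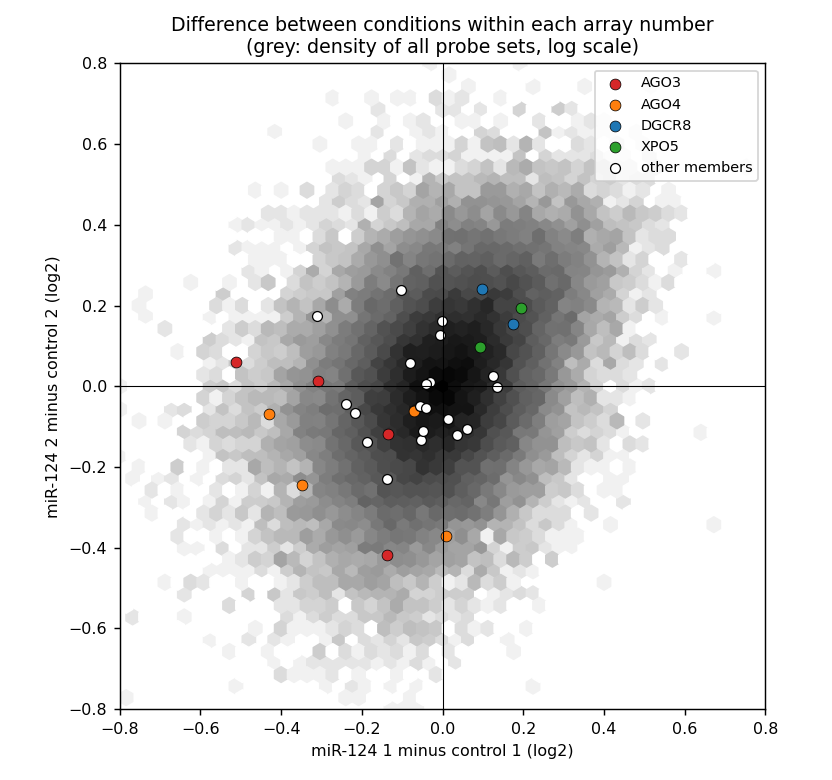
For each probe set, miR-124 1 minus control 1 against miR-124 2 minus control 2, in log2 units, with the density of all probe sets within 0.8 of 0 in grey on a log scale. The 4 points of DGCR8 and XPO5 lie at the upper right and 5 of the 8 points of AGO3 and AGO4 at the lower left. These are the probe sets of the named genes on which the conditions did not overlap.

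The other genes of the pathway, 89 in 8 lists written from textbook knowledge, were read on their brightest probe sets. Of the 86 measured genes, none passed the study's threshold, and 44 were higher and 42 lower in miR-124 cells. The median was 0.00, against 0.01 over all genes. An unadjusted p under 0.05 in limma was reached by 8, or 9.3% against the 4.45% of all genes, 5 of them higher and 3 lower, each with an adjusted p of 0.89. The remaining 3 of the 89 listed genes were not analysed here. Over all 291 probe sets of these genes 1 passed the threshold, a dimmer probe set of PATL1, a decapping factor, named here after its values were seen. It read 7.02 and 6.36 in control cells and 5.95 and 6.04 with miR-124, a difference of -0.69 (standard error 0.24, adjusted p = 0.88 in limma). The brightest probe set of PATL1 had -0.09, with overlap.

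The 5 that were higher were CNOT3, EDC4, EDC3, UPF1 and SAFB. CNOT3, a subunit of the CCR4-NOT deadenylase, read 9.11 and 9.28 in control cells and 9.49 and 9.74 with miR-124, a difference of 0.42 (standard error 0.13). EDC4, a scaffold of the decapping complex, read 9.73 and 9.95 in control cells and 10.12 and 10.40 with miR-124, a difference of 0.42 (standard error 0.14). Its other 2 probe sets had 0.21 and 0.50, and those of CNOT3 had 0.20 and 0.36, so that both genes kept their direction on every probe set. EDC3, another decapping factor, had 0.34, and its other probe set had 0.15, with miR-124 1 below both controls there. UPF1, the helicase of nonsense-mediated decay, had 0.26, and its other 2 probe sets had 0.23 and 0.17, without overlap. SAFB, a nuclear matrix protein that aids the Microprocessor on weak hairpins, had 0.30 on its brightest probe set and -0.17 to -0.31 on its other 3.

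The 3 that were lower were TOB1, LIN28A and TENT2. TOB1, an adaptor that links target mRNAs to CCR4-NOT, read 10.12 and 10.14 in control cells and 9.75 and 9.73 with miR-124, a difference of -0.39 (standard error 0.08). Its other probe set had -0.09, and there miR-124 2 lay above both controls. TENT2, a cytoplasmic poly(A) polymerase that adds single bases to microRNAs, had -0.28 on its brightest probe set and -0.11 to -0.39 on the other 3. LIN28A, which blocks the maturation of let-7, was at 5.04 to 5.56 on the 4 arrays, close to the background probe sets. In no alternative fit did more than 1 of the 86 pass the threshold. That was HSP90AA1, a chaperone of Argonaute loading, without miR-124 replicate 1 (-0.63), and RBM4, an RNA-binding partner of Argonaute, without miR-124 replicate 2 (-0.62).

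**Figure D5:**
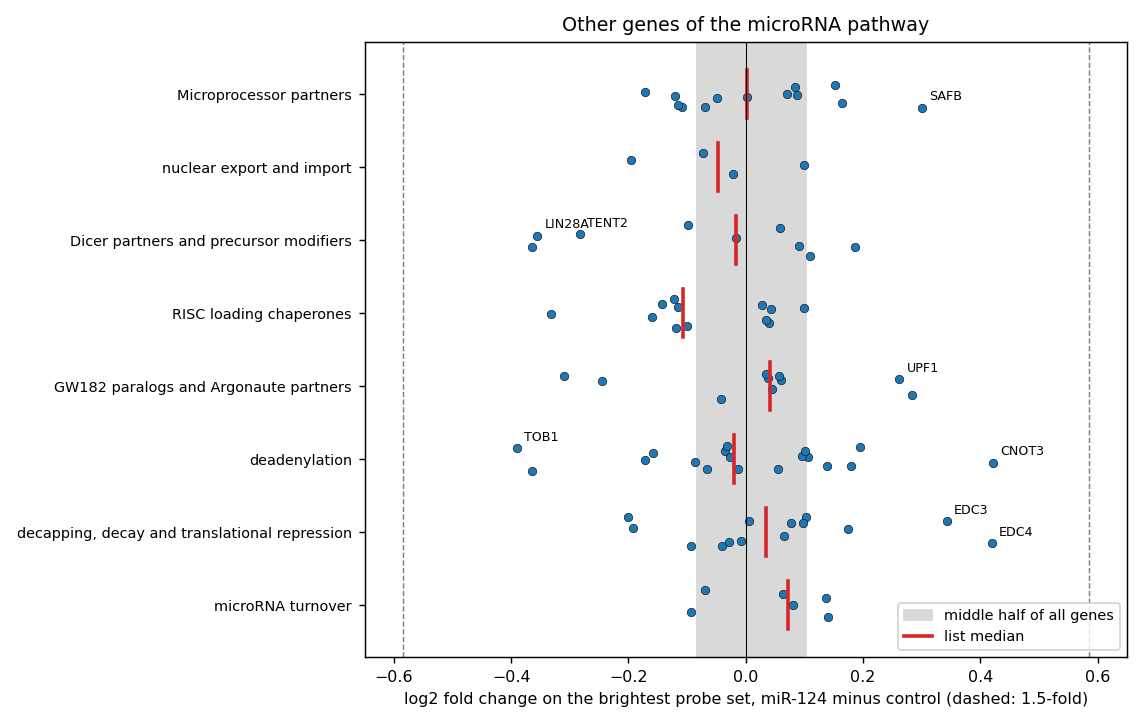
The log2 fold change, miR-124 minus control, of each of the 86 other pathway genes on its brightest probe set, by list. Red bars mark the list medians, the grey band runs from the lower to the upper quartile of all genes, and the dashed lines mark 1.5-fold. No point reaches a dashed line, and the 8 genes with an unadjusted p under 0.05 are named.

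The list medians lay between -0.11 and 0.07. Of the 12 measured chaperones of Argonaute loading, 7 were lower, with the lowest list median, -0.11. Both arrays numbered 2 lay below both numbered 1 for 9 of these 12 genes, or 75%, against 22.1% of all genes. A shift by number that is equal in both conditions cancels in the log2 fold changes. An unequal one was not tested. The 14 genes of decapping, decay and translational repression had a median of 0.04, with 8 higher and 6 lower. TNRC6B and TNRC6C, the other GW182 proteins, were in a list of 10 with a median of 0.04, of which 7 were higher and 3 lower. TNRC6B itself had 0.28 (standard error 0.15), with both miR-124 arrays above both controls, as for 18.7% of all genes. TNRC6C had 0.045, with overlap.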

How the data were processed

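RNA of 4 SeAx samples was hybridized to Affymetrix PrimeView arrays. The authors deposited log2 signals per probe set from RMA, which corrects for background, equalizes the distributions by quantiles and summarizes the probes (RMA and limma are named in the submitters' processing notes, with no version). Quantile normalization hides a change of total RNA, so each difference is relative to the rest of the array. Of 49495 probe sets, 202 array controls were left out. Symbols came from the platform annotation, 45184 probe sets having 1 symbol, 1331 several and 2778 none. Differences were tested across all probe sets with limma 3.58.1 in R 4.3.3 (lmFit, eBayes, condition as the only term, 2 residual degrees of freedom and 2.55 from the prior), with Benjamini-Hochberg adjustment. A p named unadjusted is the moderated one from limma. A gene was represented by its brightest probe set. The number of arrays limits the precision.

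The text names all 10 members and, of the other pathway genes, those past the threshold or, since there were none, up to 8 with an unadjusted p under 0.05 and no overlap of the conditions. HSP90AA1, RBM4 and PATL1 were named after their values were seen. Members and lists were chosen with earlier results of these data known. Other settings tried were a block on the number, each array left out, bright probe sets only, cyclic loess, array weights, a prior with trend and robust fitting, and the mean of a gene's probe sets. Microarray probes near the background of 5.18 to 5.23 were kept, and no detection call was used.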

Additional observations from a re-analysis of the deposited data

How the results depend on the processing

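None of the 32 member probe sets and none of the 10 genes passed the study's threshold in any of the alternatives run. The probe set with an unadjusted p under 0.05 became 2 with a replicate block for the array number, those of AGO4 (11759313_at) and AGO3 (11740857_x_at). Among the probe sets brighter than the median there were 0, but that setting left out the AGO4 probe set, so its loss was fixed in advance. The counts of other pathway genes past the threshold ran from 0 to 1 with 1 array left out. Over all probe sets the count past the threshold, 93, became 171 with the replicate block, 46 among the brighter probe sets, and 129 (without control replicate 1) to 1081 (without miR-124 replicate 1) with 1 array left out. The deviations of the same-numbered arrays from their condition means correlated at 0.64 over all probe sets, but with 2 pairs and no source that says so, the number was not taken to pair the samples. Where 1 array is left alone in its group, its spread is assumed equal to that of the other group.

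Of the log2 fold changes on the brightest probe sets, those of DGCR8, XPO5, AGO3 and AGO4 kept their direction in every alternative run that gave one, and the gene-level fit on features brighter than the median left out AGO4. With 1 array left out they ran from 0.075 (without miR-124 replicate 2) to 0.26 (without miR-124 replicate 1) for DGCR8, from 0.092 to 0.097 for XPO5, from -0.18 (without miR-124 replicate 2) to -0.070 (without miR-124 replicate 1) for AGO3, and from -0.40 (without control replicate 2) to -0.10 (without control replicate 1) for AGO4. AGO3 was at -0.079 without control replicate 2. On these probe sets of DGCR8, XPO5, AGO3 and AGO4 the conditions did not overlap, so leaving out 1 array could not reverse them. The mean of a gene's probe sets could not reverse them either, since all probe sets of each of these genes shared a direction. Only cyclic loess could have done so. The block, the array weights, the other prior and the brighter features left the log2 fold changes as they were. With 1 array left out, those of DROSHA ran from -0.13 to 0.082, of DICER1 from -0.038 to 0.17, of TARBP2 from -0.0022 to 0.15, of AGO2 from -0.075 to 0.052 and of TNRC6A from -0.30 to 0.014, and with the mean of a gene's probe sets DICER1 was at -0.053 and AGO1 at 0.0068. The cause was not tested. Signal near the background limits the dimmest probe sets of DROSHA, AGO3 and AGO4, whose differences may be understated or may be noise. Neither was tested.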
